A study of Homo sapiens with 10 samples.

Results

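H3K27ac was higher at 422 of the 42067 peaks of this study after 2 h of dTAG47 and still higher after 24 h, by the rule that defines the set. Acetylation of histone H3 at lysine 27 marks active promoters and enhancers. It was measured by chromatin immunoprecipitation with sequencing (ChIP-seq). Rh30 is an established cell line from a human alveolar rhabdomyosarcoma. The version used here makes the PAX3-FOXO1 fusion with an FKBP tag, and no source used here says whether it is 1 clone. Every group carries this tagged fusion. The 4 groups were DMSO, the solvent, and 500 nM dTAG47 for 2 h, 4 h and 24 h, with 2 libraries each, called A and B. The DMSO label gives no time, so time in culture and time in dTAG47 cannot be told apart, and the same 2 DMSO libraries serve every comparison.

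PAX3-FOXO1 is the driver transcription factor of this tumour. It joins the DNA-binding part of PAX3, a regulator of the muscle lineage, to the activating part of FOXO1, and it is known for binding enhancers and keeping them acetylated. The dTAG ligand bridges the FKBP tag to an E3 ubiquitin ligase, which marks the tagged protein for destruction. The peaks described here were chosen for a higher H3K27ac signal under this treatment. The signal is relative to the counts over all peaks of a library, so an absolute gain cannot be told from it.

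The rule kept a peak when its mean at 24 h was at least 10 CPM (counts scaled to a total of 1000000 over all peaks in a library) and when the log2 change of the group mean, with 1 CPM added, was at least 0.4 at both 2 h and 24 h. All 4 of those treated libraries also had to exceed both DMSO libraries. A log2 change of 0.4 is 1.32-fold. Peaks are windows of 400 bases on hg19, with the authors' coordinates. Nothing tells if their bases are counted from 0 or 1. The DMSO, 2 h and 24 h libraries thus chose the peaks, and their values are given as a description. The 4 h libraries had no part in the choice. The 422 peaks were 1.60% of the 26334 peaks that reached 10 CPM at 24 h, and all of them passed the filter on low counts. By comparison, 765 peaks met the mirror rule for losses, with at least 10 CPM in DMSO. A further 1816 peaks met only the 24 h part of the rule for gains, and 314 met only the 2 h part.

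Libraries held between 3540104 and 5001652 counts in peaks. A gained peak held few of them. Its median count was 33 in each DMSO library and between 49 and 75 in the treated libraries. Counting error alone is 17.4% of a count of 33, against the 1.32-fold step that the rule asks for. Replicates are libraries whose separate culture is not stated, so their spread may be technical.

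By median level, the gained peaks were weaker than all peaks of at least 10 CPM at 24 h, in DMSO and under treatment. Their median level was 9.17 CPM in DMSO, and under dTAG47 it was 13.8 after 2 h, 13.1 after 4 h and 14.9 after 24 h, whereas the 26334 peaks of at least 10 CPM at 24 h had medians between 24.0 and 24.5 in every group. In DMSO, 234 of the 422 (55.5%) lay under 10 CPM, against 7.72% of the 26334 and 43.7% of the peaks that met only the 24 h part. The rule set its floor at 24 h and asked for a lower DMSO mean, so it favours peaks that are low in DMSO. The median log2 change was 0.50 at 2 h, with quartiles of 0.45 and 0.58. At 24 h it was 0.62, with quartiles of 0.51 and 0.78. Both libraries of a group gave like medians against the DMSO mean, 0.52 and 0.50 for the 2 h libraries, then 0.64 and 0.63 for those of 24 h.

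**Figure D1:**
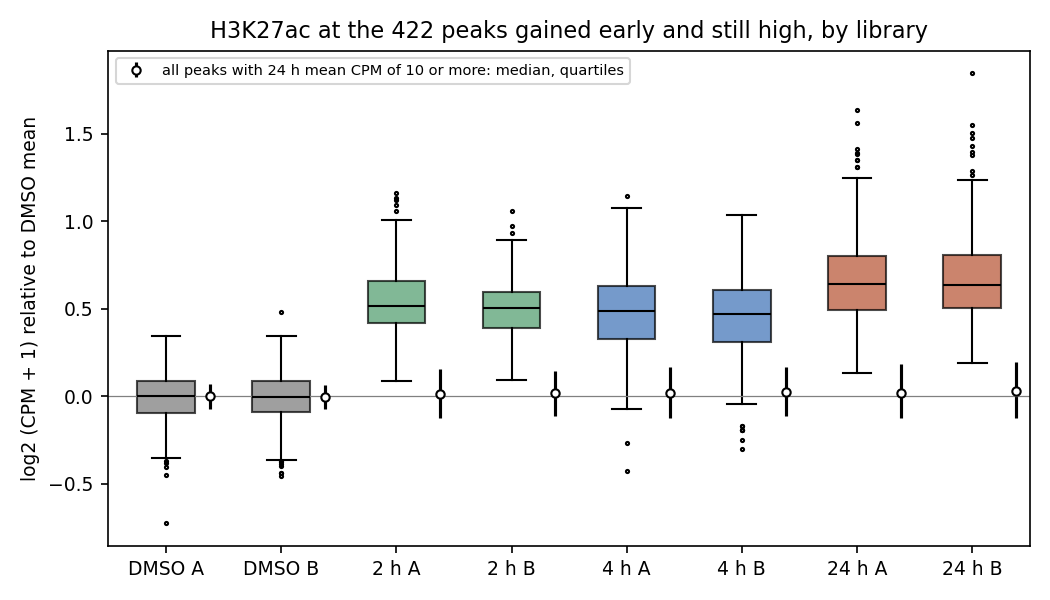
Box plots of log2 (CPM + 1) at the 422 gained peaks relative to the DMSO mean, for each library (box, quartiles; whiskers, 1.5 times the box; dots, peaks beyond), with the median and quartiles of all 26334 peaks of at least 10 CPM at 24 h as open circles. The 4 h boxes, which the rule did not use, have medians of 0.49 and 0.47, and the open circles stay between 0.00 and 0.03.

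At 4 h, a time that the rule did not use, most gained peaks stood above DMSO. The rule required a gain at 2 h, so the sizes at 2 h and 4 h are not compared. The median log2 change of 4 h against DMSO was 0.47, with quartiles of 0.34 and 0.59, and 273 of the 422 (64.7%) reached 0.4. Both 4 h libraries exceeded both DMSO libraries at 361 of them (85.5%), against a background of 23.0% of all 42067 peaks and 24.6% of those with at least 10 CPM at 24 h, and at 0 did both lie below. Of the 422, 3 peaks had a 4 h mean at or under the DMSO mean. In edgeR's quasi-likelihood test over all 41791 peaks tested, 60 of the 422 (14.2%) were called higher at 4 h at an adjusted p under 0.05, against a background of 0.567% (0.744% of peaks with at least 10 CPM at 24 h). At an adjusted p under 0.05, 0 were called lower by edgeR, against 1.67%. At an unadjusted edgeR p under 0.05, 256 were higher and 0 lower, beside 2459 higher and 2999 lower of all 41791 tested. The DMSO libraries are shared with the rule, so a peak that stood low in them entered both the choice and this comparison. The counts from other runs that follow have no share over all peaks beside them, so they are not set against a background. DESeq2 called 3 of the 422 higher and 0 lower at 4 h, and leaving out 1 library of either group left between 14 and 27 higher calls: 19 without DMSO A, 15 without DMSO B, 27 without 4 h A and 14 without 4 h B.

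For the comparisons that the rule used, the test gives the following description, from which nothing is read. At 2 h, 41 of the 422 (9.72%) were called higher by edgeR, beside 0.194% of all peaks, and 0 lower, beside 1.03%. At 24 h the number was 252 (59.7%), beside 3.46%, and 0 were lower, beside 4.88%. Without adjustment, too, edgeR gave 0 lower values with a p under 0.05 in both comparisons, and DESeq2 called 0 lower. Over all 41791 peaks tested, the unadjusted edgeR test gave 2682 lower at 2 h and 4666 at 24 h. The rule fixed the direction of the gained peaks in both comparisons.

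At 4 h against DMSO, better-covered peaks were called higher more often, in the set and over all peaks. Of the gained peaks, 86 averaged at least 20 CPM over all 8 libraries. Of these, 29 (33.7%) were called higher at 4 h and 82 (95.3%) had both 4 h libraries above both DMSO libraries. The other 336 had 31 calls (9.23%) and 279 such peaks (83.0%). Over all peaks tested, 0.827% of those averaging at least 20 CPM and 0.412% of the others were called higher at 4 h, and 22.3% and 23.5% had both 4 h libraries above both DMSO libraries. The median log2 change of the gained peaks at 4 h was 0.47 in both classes. At 24 h against DMSO the order over all peaks was the reverse, with 3.17% of the better-covered and 3.64% of the others called higher.

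To see how large the gain is in libraries that took no part in the choice, the thresholds were applied to the A libraries alone and the peaks measured in the B libraries, and the reverse. This choice is looser than the rule, since 1 library stands for each group. It took 1108 peaks by the A libraries, 259 of them among the 422, and 946 by the B libraries, 253 of them among the 422. For the 1108 peaks, the median log2 change in the B libraries was 0.08 after 2 h, 0.17 after 4 h and 0.27 after 24 h. In the A libraries it was 0.55, 0.48 and 0.63, where the 4 h library took no part in the choice but is set against the DMSO library that did. For the 946 peaks, the A libraries gave 0.13, 0.22 and 0.27 at those times, and the B libraries gave 0.53, 0.48 and 0.63, with the 4 h library again outside the choice. The values were thus smaller in the other letter at every time, and there smallest at 2 h. At 4 h neither letter's treated library chose the peaks, and the values differ by whether the DMSO library did. At 24 h the held-out library was above the DMSO library of its letter at 80.0% of the 1108 and 77.5% of the 946 peaks, against 51.8% and 50.4% of the 26191 peaks averaging at least 10 CPM. At 2 h these shares were 61.0% and 69.3%, against 53.6% and 52.1%. With 1 library per group there is no test of these shares. For these 1108 and 946 peaks the gain at 2 h was thus smaller than in the libraries that chose them. The 422 have no held-out libraries at 2 h or 24 h. Their values at those times may be too high in the same way, by an amount that was not tested.

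**Figure D2:**
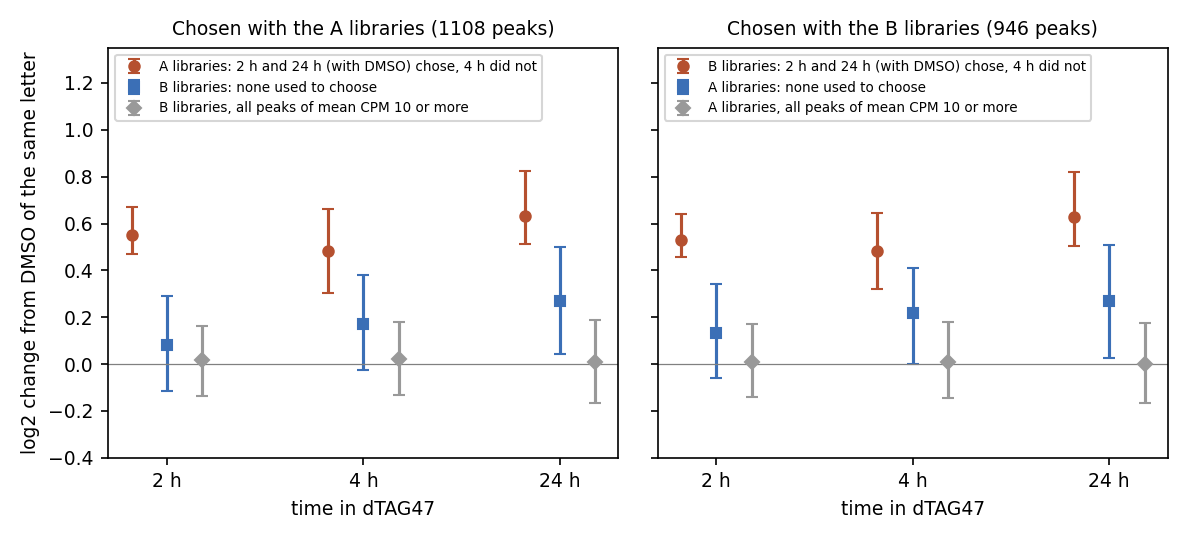
Median log2 change from DMSO (points) with quartiles (bars) at 2 h, 4 h and 24 h, for peaks chosen by the same thresholds in the A libraries alone (left, 1108 peaks) or the B libraries alone (right, 946 peaks). Circles show the letter whose DMSO, 2 h and 24 h libraries chose the peaks (its 4 h library did not), squares the other letter, and diamonds all 26191 peaks averaging at least 10 CPM in that other letter; at 2 h the squares sit at 0.08 and 0.13, against 0.55 and 0.53 for the circles.

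Over time, most gained peaks were higher at 24 h than at 2 h or 4 h. The 24 h mean exceeded the 2 h mean at 321 of the 422 (76.1%), against 53.0% of the peaks of at least 10 CPM at 24 h, and it exceeded the 4 h mean at 344 (81.5%), against 51.8%. A 24 h minimum was part of the rule and a 4 h minimum was not. The 4 h mean exceeded the 2 h mean at 159 (37.7%), against 51.2% of the peaks of at least 10 CPM at 24 h. By order of the means, 102 peaks climbed at each step and 21 declined at each step. Among the treated groups, 242 were lowest at 4 h and 57 were highest at 4 h. Of the 26334 peaks of at least 10 CPM at 24 h, 5650 climbed and 4845 declined. There, 8002 were lowest at 4 h and 7837 highest. The rule asked for gains at 2 h and 24 h only. It thus favours peaks that are lowest at 4 h, so no time course is read from these orders. The direct test of 24 h against 4 h called 14 of the 422 higher (3.32%), against a background of 0.438%, and 0 lower, against 0.68%. The 24 h libraries helped to choose the peaks. Unadjusted edgeR p-values under 0.05 went with 88 higher and 0 lower values among the 422, beside 2659 higher and 2966 lower of all 41791 tested. For 24 h against 2 h, where the rule used both groups and nothing is read from the test, 15 were called higher (3.55%), beside 1.69% of all peaks, and 0 lower, beside 2.49%. Without adjustment edgeR gave 53 higher and 0 lower, beside 3505 and 3836 over all peaks. The calls fell to between 2 and 5 for 24 h against 4 h and to between 5 and 8 for 24 h against 2 h when 1 library was left out, and to 0 and 2 in DESeq2. For 24 h against 4 h they numbered 3 without 24 h A, 2 without 24 h B, 5 without 4 h A and 3 without 4 h B. For 24 h against 2 h they numbered 7 without 24 h A, 5 without 24 h B, 8 without 2 h A and 5 without 2 h B. No share over all peaks stands beside these counts from DESeq2 or from fewer libraries. Between 4 h and 2 h, edgeR and DESeq2 called 0 of the 422 in either direction, against an edgeR background of 0.0% each. Unadjusted edgeR p-values under 0.05 went with 6 higher and 10 lower values, beside 1381 and 1511 of all 41791.

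Peaks that met only one time's part of the rule are set beside the gained peaks as a description, over shared DMSO libraries. The median log2 change at 4 h was 0.47 for the gained peaks, 0.29 for the 1816 that met only the 24 h part and 0.29 for the 314 that met only the 2 h part. Both 4 h libraries exceeded both DMSO libraries at 85.5%, 61.7% and 65.0% of them.

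The strongest of the gained peaks lie together on chromosome 20. The peak at 61155329 to 61155729 (hg19) had 58.5 and 57.2 CPM in DMSO, 84.3 and 83.0 at 2 h, 92.8 and 91.5 at 4 h, then 124 and 120 at 24 h. Every group lay clear of the one before it. Its log2 change of 4 h against DMSO was 0.66 (SE 0.09, edgeR adjusted p = 8.53e-08), and that of 24 h against 4 h was 0.40 (SE 0.08, edgeR adjusted p = 0.000915). The peak at 61164142 to 61164542 had 39.5 and 42.6 CPM in DMSO, 56.7 and 58.0 at 2 h, 70.3 and 64.8 at 4 h, then 85.4 and 86.3 at 24 h. It too separated all groups, and its log2 change of 4 h against DMSO was 0.70 (SE 0.11, edgeR adjusted p = 1.17e-06). For 24 h against 4 h it was 0.34 (SE 0.09, edgeR adjusted p = 0.0264), a call that was lost without any 1 of the 4 libraries concerned (adjusted p from 0.0687 to 0.325). DESeq2 called neither peak for 24 h against 4 h (adjusted p = 0.644 and 1).

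Another well-covered peak lies on chromosome 12. The peak at 110157419 to 110157819 had 19.8 and 16.1 CPM in DMSO, 27.9 and 27.2 at 2 h, 36.0 and 37.6 at 4 h, then 38.8 and 33.4 at 24 h. The 4 h and 24 h libraries overlapped, and both groups lay above the 2 h libraries. Its log2 change of 4 h against DMSO was 1.02 (SE 0.15, edgeR adjusted p = 3.94e-07). Of the 31 peaks named in this text as members of the set, 15 were called higher at 4 h. Some were named for their large change or high level at 4 h, so this share does not describe the set. In the whole set 14.2% were called, beside 0.567% of all peaks tested. The calls of 3 of the 15 named peaks held in every alternative run, DESeq2 included: the pair on chromosome 20 and the peak at 110157419.

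Weaker peaks made up most of the largest log2 changes at 4 h. The peak on chromosome 9 at 86046806 to 86047206 had 6.5 and 5.1 CPM in DMSO, 7.5 and 11.4 at 2 h, 14.0 and 12.1 at 4 h, then 12.8 and 10.3 at 24 h. Both 4 h libraries exceeded both 2 h libraries there, while the 24 h and 2 h libraries overlapped. Its log2 change of 4 h against DMSO was 1.15 (SE 0.26, edgeR adjusted p = 0.00317). On chromosome 16, the peak at 90101747 to 90102147 had 5.1 CPM in both DMSO libraries, 7.5 and 9.5 at 2 h, 11.8 and 10.6 at 4 h, then 15.2 and 16.2 at 24 h, with no overlap between groups. On chromosome 2, that at 241233558 to 241233958 had 4.5 and 3.4 CPM in DMSO, 7.5 and 7.8 at 2 h, 8.8 and 9.1 at 4 h, then 14.4 and 13.5 at 24 h, again with no overlap. Their log2 changes of 4 h against DMSO were 1.12 and 1.16 (edgeR adjusted p = 0.00887 and 0.0196). A peak on chromosome 1 at 114563925 to 114564325 had 1.10 (edgeR adjusted p = 0.0108), and one on chromosome 22 at 29314120 to 29314520 had 1.10 without passing the test (edgeR adjusted p = 0.054). The calls at 4 h of the peaks on chromosomes 16, 2 and 1 were lost without any 1 of the 4 libraries concerned and in DESeq2. That on chromosome 9 was lost without DMSO B (0.158), without 4 h A (0.068) and in DESeq2 (0.369).

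Some of the best-covered members had smaller changes at 4 h. The peak on chromosome 17 at 79355389 to 79355789, in a region of 23 peaks, had 49.7 and 53.3 CPM in DMSO, 69.1 in both 2 h libraries, 57.4 and 73.4 at 4 h, then 76.6 and 76.7 at 24 h. Its 4 h libraries spread widely, and its log2 change of 4 h against DMSO was 0.34 (edgeR adjusted p = 0.0656). The peaks on chromosome 2 at 239047295 to 239047695 and chromosome 1 at 228102677 to 228103077 had changes of 0.30 and 0.32 that did not pass the test (edgeR adjusted p = 0.179 and 0.166). Among peaks of this strength, calls at 4 h were thus made for the pair on chromosome 20 and for the one on chromosome 2 at 242754296, described with its neighbours.

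**Figure D3:**
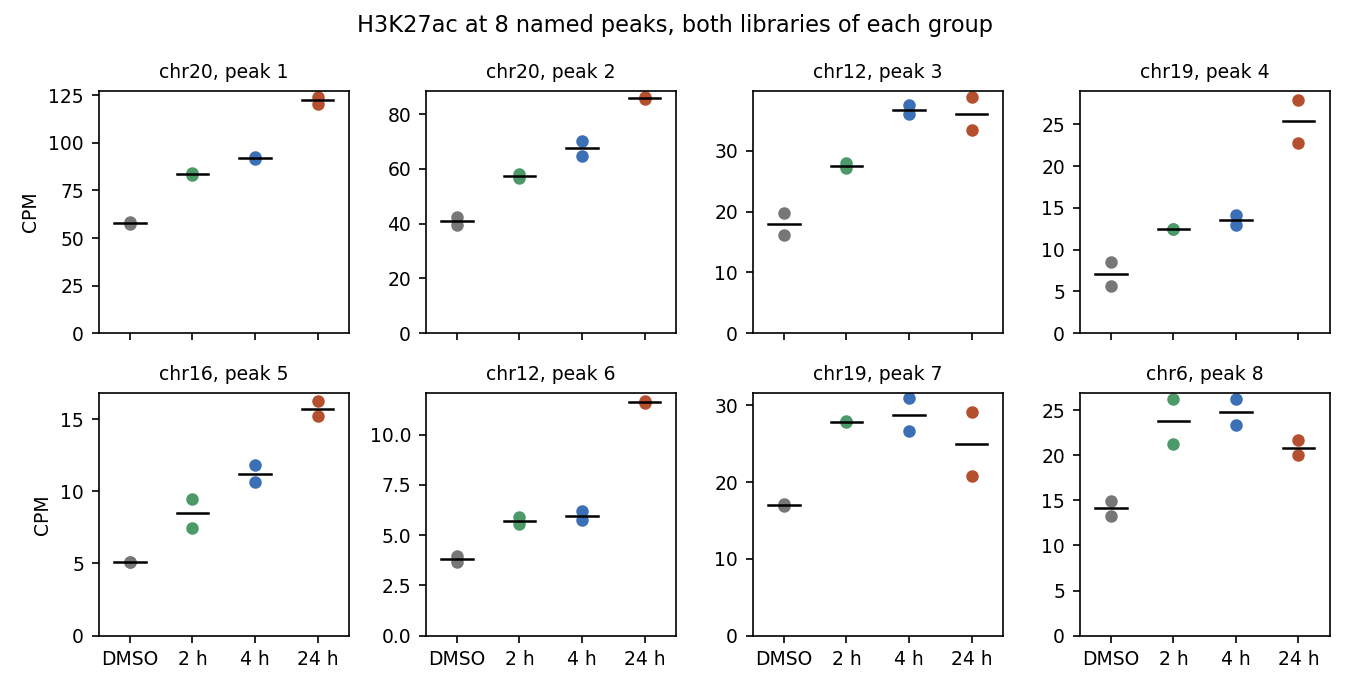
H3K27ac in CPM (linear axis from 0) at 8 named peaks, with a dot for each of the 2 libraries of a group and a line at their mean. Peaks 1 and 2 are the pair on chromosome 20, 3 is at 110157419 on chromosome 12, 4 at 18555225 on chromosome 19, 5 at 90101747 on chromosome 16, 6 at 106053177 on chromosome 12, 7 at 34884222 on chromosome 19 and 8 at 41471722 on chromosome 6; peaks 1, 2, 4, 5 and 6 are highest at 24 h in both libraries, while 7 and 8 have their highest mean at 4 h.

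A second step between 4 h and 24 h was largest at 4 peaks. The peak on chromosome 12 at 106053177 to 106053577 had 3.7 and 3.9 CPM in DMSO, 5.5 and 5.9 at 2 h, 5.8 and 6.2 at 4 h, then 11.6 and 11.7 at 24 h. Its 2 h and 4 h libraries overlapped and its 24 h libraries stood clear of both. The log2 change of 24 h against 4 h was 0.95 (SE 0.25, edgeR adjusted p = 0.0292). The peak on chromosome 19 at 18555225 to 18555625 had 5.6 and 8.5 CPM in DMSO, 12.4 in both 2 h libraries, 12.9 and 14.1 at 4 h, then 22.8 and 27.9 at 24 h. Its change of 24 h against 4 h was 0.89 (SE 0.17, edgeR adjusted p = 0.001). At 4 h it was called higher than DMSO (log2 change 0.92, edgeR adjusted p = 0.0193), a call lost without DMSO A (0.379), 4 h A (0.0572) or 4 h B (0.198) and in DESeq2 (0.576). The peak on chromosome 20 at 31379492 to 31379892 lay within the DMSO range at 4 h, with 7.9 and 11.0 CPM in DMSO, 15.5 and 11.2 at 2 h, 9.3 and 9.1 at 4 h, then 15.6 and 18.1 at 24 h. Its change of 24 h against 4 h was 0.85 (SE 0.21, edgeR adjusted p = 0.0145). For a peak on chromosome 5 at 106928279 to 106928679 the change of 0.80 did not pass the test (edgeR adjusted p = 0.0896). The calls on chromosome 12 and at 31379492 were lost without any 1 of the 4 libraries (adjusted p from 0.156 to 0.18 and from 0.0526 to 0.185), and the call on chromosome 19 without 24 h B (0.0878). DESeq2 made none of the 3.

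At the other end, 4 peaks had the lowest values of 24 h against 4 h, and none of these changes passed the test. On chromosome 6, the peak at 41471722 to 41472122 had 15.0 and 13.3 CPM in DMSO, 26.3 and 21.3 at 2 h, 23.3 and 26.2 at 4 h, then 19.99 and 21.7 at 24 h. Its log2 change of 24 h against 4 h was -0.26 (SE 0.15, edgeR adjusted p = 0.461). On chromosome 19, the one at 34884222 to 34884622 had 16.9 and 17.2 CPM in DMSO, 27.9 and 27.8 at 2 h, 26.6 and 30.9 at 4 h, then 20.8 and 29.1 at 24 h. Its 24 h libraries enclosed both 2 h libraries, so no fall from the early level can be told from the spread. The peaks on chromosome 7 at 157112874 to 157113274 and chromosome 17 at 21295271 to 21295671 had changes of -0.24 each. All 4 were called higher at 4 h than in DMSO (edgeR adjusted p from 0.00219 to 0.013). Each of these calls was lost in DESeq2 and without DMSO A or DMSO B or both, and without 1 of the 4 h libraries.

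Gained peaks tended to have other peaks close by, as did the related sets. Peaks at most 12500 bases apart were joined into regions. Of the 422, 83 (19.7%) stood alone in their region, against 36.1% of the peaks of at least 10 CPM at 24 h, and the median distance to the nearest peak was 3482.5 bases against 7335. The share alone was 24.2% for peaks that met only the 24 h part, 25.2% for those that met only the 2 h part and 28.9% for the mirror losses. Another peak lay within 2.5 kb of 45.3% of the gained peaks, 43.8%, 33.4% and 43.3% of those sets and 32.4% of the peaks of at least 10 CPM. The gap differed by level. Among peaks of 10 to 20 CPM at 24 h it was narrower: 25.2% of the 306 gained peaks stood alone, against 30.7% of all 10726. This class held 77 of the 83 gained peaks that stood alone, but only 3289 of the 9517 such peaks of at least 10 CPM. The gap was thus wider above 20 CPM. Within regions of 2 or more peaks, the gained peak was the strongest of its region at 4 h in 24.2% of 339 cases, against 40.0% for all peaks of at least 10 CPM at 24 h. In the narrower class of 10 to 20 CPM the shares were 21.4% and 28.3%.

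The 422 peaks fell in 388 regions. Of these, 31 regions held 2 or more gained peaks, 65 peaks in all, and 3 regions held 3. On chromosomes the gained share of peaks of at least 10 CPM ran between 0.55% on chromosome 13 (2 peaks) and 2.54% on chromosome 22 (18 peaks), with 48 peaks on chromosome 1, 42 on chromosome 2 and 38 on chromosome 17. These shares were not tested.

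Peaks near a gained peak that did not meet the rule were also higher. The nearest, 194 peaks within 2.5 kb, had a median log2 change from DMSO of 0.16 after 2 h, 0.19 after 4 h and 0.29 after 24 h. Between 2.5 kb and 12500 bases the 427 peaks had 0.08, 0.11 and 0.13, and from there to 50 kb the 1325 peaks had 0.07, 0.08 and 0.09. Beyond 200 kb the medians were 0.00, 0.00 and 0.01. At 24 h, 45 of the 194 nearest peaks (23.2%) were called higher by edgeR and 1 lower, against a background of 3.46% higher and 4.88% lower. At 4 h, 12 (6.19%) were called higher, against 0.567%, and 0 lower. At 2 h, 0 were called in either direction, against 0.194% higher. Of these neighbours, 32 lay within 400 bases of a gained peak, where 1 DNA fragment can be counted in both windows. The same libraries measure both, so a gain in a neighbour is not a separate replicate.

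**Figure D4:**
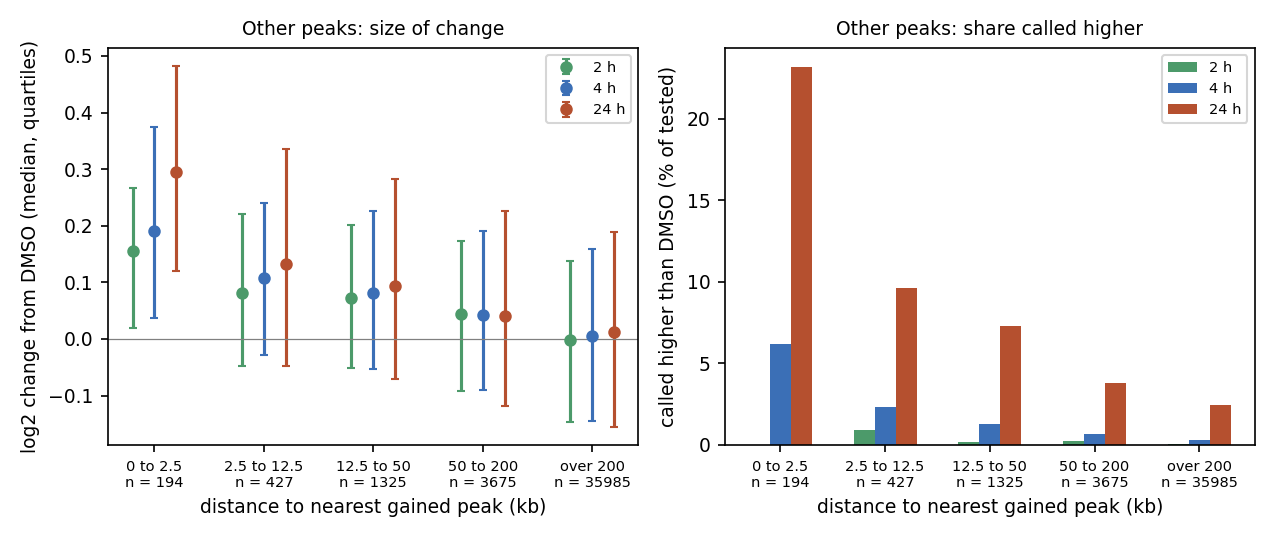
Peaks outside the set, by distance to the nearest gained peak in kb (edge to edge), with the log2 change from DMSO as median and quartiles on the left and the percentage called higher by edgeR on the right, at 2 h, 4 h and 24 h. At 24 h the called share is 23.2% within 2.5 kb, 9.60% from 2.5 kb to 12500 bases and 2.45% beyond 200 kb.

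The 3 regions with 3 gained peaks each differ in how much of the region moved. The region on chromosome 12 at 108976276 to 109003876 holds 6 peaks. Its summed level was 119 and 104 CPM in DMSO, 142 and 145 at 2 h, 153 and 166 at 4 h, then 177 and 171 at 24 h, so that each group lay above the one before it. Both treated libraries exceeded both DMSO libraries at 4 of the 6 peaks at 2 h and at all 6 at 4 h and 24 h. Over all peaks tested these shares were 20.6%, 23.1% and 27.4%. The sum includes the 3 gained peaks, whose place above DMSO at 2 h and 24 h the rule fixed. The region's gained peaks at 108976276, 108981499 and 108983111 had log2 changes at 4 h of 0.48, 0.53 and 0.77. Of these the last passed the test (edgeR adjusted p = 0.0522, 0.0923 and 0.0033).

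The region on chromosome 2 at 242744237 to 242754696 holds 4 peaks. Its summed level was 63.6 and 71.3 CPM in DMSO, 83.8 and 104 at 2 h, 101 and 93.5 at 4 h, then 102 and 96.4 at 24 h. The treated groups overlapped one another and all lay above DMSO. The sum includes the 3 gained peaks, whose place above DMSO at 2 h and 24 h the rule fixed. The other peak, at 242744237, had log2 changes from DMSO of -0.07 at 2 h, 0.24 at 4 h and 0.20 at 24 h. At each time both treated libraries exceeded both DMSO libraries at 3 of the 4 peaks. The gained peaks at 242753554 and 242754296 were called higher at 4 h (log2 change 0.69 and 0.46, edgeR adjusted p = 0.0407 and 0.0213), while that at 242751999 had 0.56 (edgeR adjusted p = 0.0915). The calls at 242753554 and 242754296 were lost without any 1 of the 4 libraries and in DESeq2, and that at 108983111 without DMSO A, DMSO B or 4 h B and in DESeq2.

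The region on chromosome 5 at 1102730 to 1153897 is the widest, with 11 peaks over 51.2 kb. Its summed level was 175 and 187 CPM in DMSO, 213 and 219 at 2 h, 214 and 222 at 4 h and 245 in both 24 h libraries. The 2 h and 4 h libraries overlapped, and the 24 h libraries lay above both. This sum, too, includes the 3 gained peaks. Both treated libraries exceeded both DMSO libraries at 7 of the 11 peaks at 2 h, 5 at 4 h and 9 at 24 h. Gained peaks alternate there with others, such as the one at 1124599, whose log2 changes from DMSO lay between -0.02 and 0.02. Of its gained peaks, those at 1111719, 1119448 and 1153497 were not called at 4 h (edgeR adjusted p = 0.367, 0.765 and 0.287). The one at 1119448 was called higher at 24 h than at 4 h (log2 change 0.67, SE 0.18, edgeR adjusted p = 0.0303), a call lost without any 1 of the 4 libraries (adjusted p from 0.0626 to 0.379) and in DESeq2.

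The region around the pair on chromosome 20, chosen for description after its values were seen, holds 6 peaks at 61147999 to 61167240. Its summed level was 255 and 241 CPM in DMSO, 321 and 319 at 2 h, 383 and 361 at 4 h, then 476 and 480 at 24 h. Each group lay clear of the one before it, and at each time both treated libraries exceeded both DMSO libraries at all 6 peaks. The other 4 peaks of the region missed the rule at 2 h, where their log2 changes lay between 0.16 and 0.37. At 24 h they lay between 0.67 and 1.15.

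**Figure D5:**
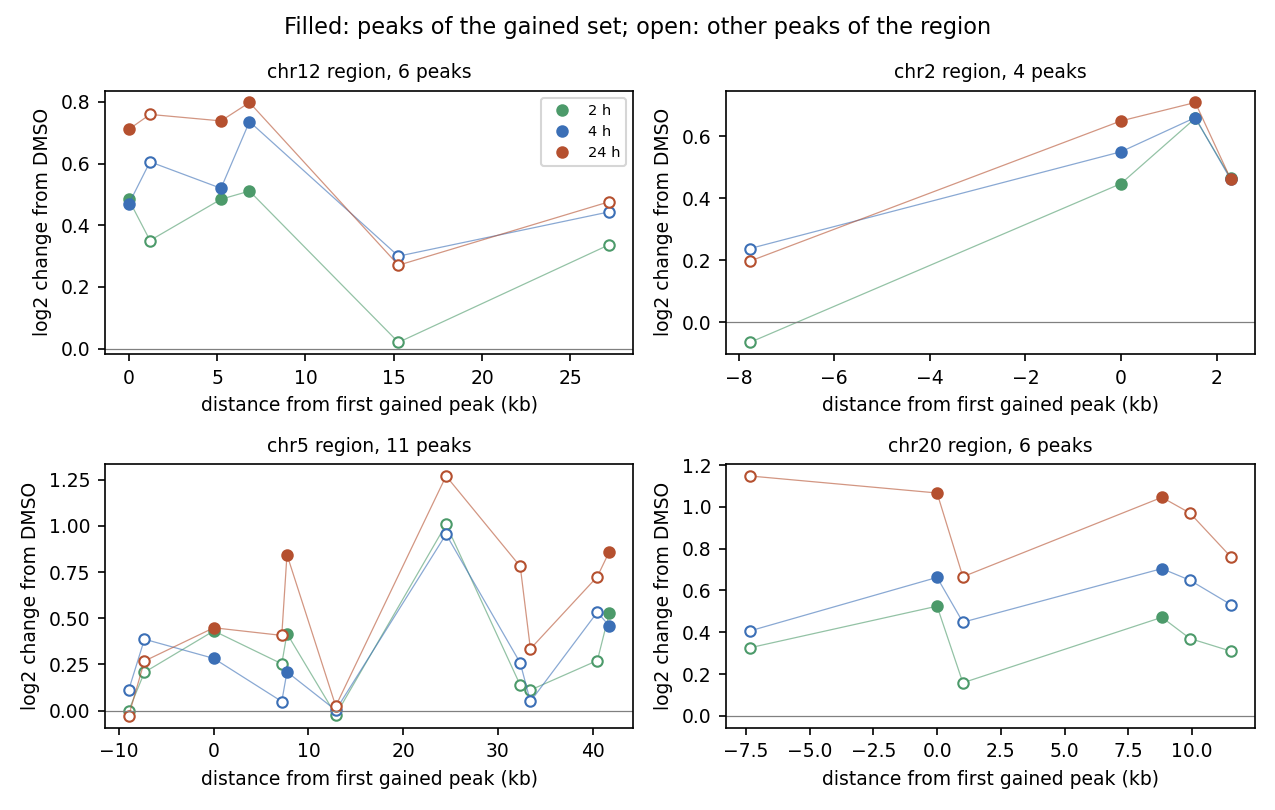
Log2 change from DMSO of the group mean at each peak of 4 regions, against distance in kb from the first gained peak of the region, at 2 h, 4 h and 24 h (filled, gained peaks; open, other peaks; lines join peaks of one time). In the chromosome 20 region all 6 peaks are above 0 at each time and highest at 24 h, while in the chromosome 5 region a peak near 13 kb stays at 0.

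The threshold cuts through a continuous range. Of the 422, 143 had their smaller log2 change within 0.05 of 0.4, and 2941 further peaks met all of the rule except the size of the change. Just inside lay the peaks on chromosome 7 at 134576144, chromosome 15 at 99551564 and chromosome 17 at 79495163, with 0.40 at 2 h and 0.70, 0.47 and 0.65 at 24 h. Just outside lay those on chromosome 4 at 3485510, chromosome X at 72783078 and chromosome 1 at 235114143, whose smaller change rounds to 0.40 as well.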

How the data were processed

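H3K27ac ChIP-seq was analysed in 8 libraries, 2 per group. 2 DMSO input libraries have no column in the table and were not used here. The deposited file holds raw counts of reads per peak window on hg19, made by the authors. Per the submitters' processing notes, the tools named include Trimmomatic 0.32, Bowtie2, MACS2, DiffBind and DESeq2, with no role or order given. The column letters A and B are not in the sample titles, so a column gives a group and a letter but no pairing of libraries. CPM was computed on column sums, which run from 3540104 to 5001652.

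Tests used edgeR 4.0.16 (R 4.3.3): TMM scaling, filterByExpr (minimum count 10, total 15; 276 of 42067 peaks left out), robust quasi-likelihood over all 4 groups in 1 fit, and Benjamini-Hochberg adjustment over 41791 peaks at 0.05. Alternatives were DESeq2 1.42.0, other scalings, no filter, a replicate block and leaving out each library. The fit was tested on simulated data. The members and lists were chosen with earlier results of these data known.

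Peaks are named by rule: the 6 largest log2 changes at 4 h, the 6 highest levels at 4 h, the 4 largest and 4 smallest changes of 24 h against 4 h, the members of the 3 regions with most members, and 3 on either side of the threshold. The gene tables at hand are on another build, GRCh38, so no gene is named and no sequence printed. Errors from counts cover counting error only.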

Additional observations from a re-analysis of the deposited data

Results flagged for a closer look

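Direct tests called 24 h different from an earlier dTAG47 time at 8 of the named peaks (edgeR adjusted p under 0.05). Each was higher at 24 h. Over all 41791 peaks tested, 0.438% were called higher for 24 h against 4 h and 1.69% for 24 h against 2 h. The 24 h libraries helped to choose the peaks, and 4 peaks were named for their large change of 24 h against 4 h. Nothing is therefore read from the count or the direction. DESeq2 called 0 of the 422 higher for 24 h against 4 h. For 24 h against 4 h the log2 change was 0.40 at 61155329 and 0.34 at 61164142 on chromosome 20, 0.85 at 31379492 on the same chromosome, 0.95 at 106053177 on chromosome 12, 0.89 at 18555225 on chromosome 19 and 0.67 at 1119448 on chromosome 5.

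For 24 h against 2 h the log2 change was 0.85 at 241233558 on chromosome 2 and 0.85 at 90101747 on chromosome 16. It was 0.53 and 0.56 at the pair 61155329 and 61164142 on chromosome 20. It was 1.00 at both 106053177 on chromosome 12 and 18555225 on chromosome 19. The 2 h and 24 h libraries both helped to choose these peaks, so nothing is read from these tests.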

How the results depend on the processing

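The size of the set followed its thresholds. It was 850 with a floor of 5 CPM, 116 with 20 CPM, 985 at a log2 change of 0.3 and 175 at 0.5, and it ran from 428 to 926 when 1 library was left out. The 926 arose without DMSO B and 914 without DMSO A, of which 314 and 313 were among the 422. DESeq2 called fewer of the 422 higher than edgeR: 0 at 2 h, 3 at 4 h and 32 at 24 h against DMSO, 0 for 24 h against 4 h and 2 for 24 h against 2 h. With 1 library left out, which leaves a lone library assumed to vary like the other groups, the higher calls ran from 6 to 22 at 2 h, 14 to 27 at 4 h and 113 to 154 at 24 h against DMSO. They ran from 2 to 5 for 24 h against 4 h and from 5 to 8 for 24 h against 2 h. The cause was not tested, beyond fewer libraries in the last case. For the alternative runs here and below, no share over all peaks stands beside the counts of calls, so they are not read against a background.

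A replicate block by column letter gave 44, 62 and 252 higher calls at 2 h, 4 h and 24 h against DMSO, and 0, 14 and 16 for 4 h against 2 h, 24 h against 4 h and 24 h against 2 h. Differences between A and B libraries correlated across groups by -0.033 to 0.054, so no shared difference by letter was seen. Counting error could hide a small one, so whether the letters pair the libraries is not known. Sign changes arose in 14 values of 10 named peaks, and 0 of these passed the test. With 1 library left out, the log2 change of 4 h against DMSO ran from -0.26 to 0.21 at 31379492, -0.067 to 0.54 at 106928279, -0.20 to 0.35 at 99551564 and -0.028 to 0.60 at 79495163. That of 24 h against 4 h ran from -0.15 to 0.064 at 110157419, -0.065 to 0.048 at 242754296 and -0.48 to 0.0026 at 34884222. It ran from -0.092 to 0.22 at 108983111, -0.095 to 0.33 at 242751999 and -0.037 to 0.14 at 242753554. With total counts it was 0.0053 at 242754296. Depth limits the weaker peaks, whose median count was 33 in a DMSO library.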
